A study of Homo sapiens with 3 samples.

Results

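Aldehyde dehydrogenases (ALDH enzymes) were examined in OCI-AML2 R50 cells. These derive from OCI-AML2, an established human line of acute myeloid leukaemia, and were grown with 15% fetal bovine serum in the presence of cytarabine (Ara-C, a nucleoside drug of leukaemia therapy) at 50 µM. The members were 10 ALDH genes given by name, namely ALDH16A1, ALDH3B1, ALDH5A1, ALDH1A1, ALDH1B1, ALDH2, ALDH3A2, ALDH7A1, ALDH9A1 and ALDH18A1, of the 25247 gene symbols in the files. They had been chosen with the values of these libraries in view, so the difference between groups is described for them and is not tested. There was 1 control library, and there were 2 libraries of cells treated with romidepsin, an inhibitor of class I histone deacetylases, for 18 h. Both groups carried the cytarabine and serum of the culture, and all libraries came from the same line. The sources used here give neither the romidepsin dose nor whether separate cultures were treated, so the spread of the romidepsin pair, and every p-value that rests on it, may be technical. With 1 control library, a difference between cultures and the action of romidepsin cannot be told apart. Values are FPKM, fragments per kilobase of gene scaled to the number of mapped fragments, so levels can be compared between genes.

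ALDH enzymes oxidise aldehydes to carboxylic acids with NAD or NADP as the electron acceptor, and they clear reactive aldehydes that arise from alcohol, lipid peroxidation, amino acids and vitamin A. Several members act in mitochondria, where they are steps of the breakdown or synthesis of amino acids and of the neurotransmitter GABA. In haematopoiesis, high ALDH activity in a fluorescent assay is used to sort stem and progenitor cells, and ALDH1A1 also oxidises an active form of cyclophosphamide to an inactive product.

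The promoters of 4 members are shown because these genes stand for the 3 patterns described below, with the control level higher (ALDH5A1 and ALDH18A1), the romidepsin level higher (ALDH3A2) or hardly any signal (ALDH1A1). Each runs 5′ to 3′ on the strand of the gene, from 250 bases before to 50 after an annotated start, from RefSeq on build GRCh38.p14, which is not the build of the deposited values (hg19). Capitals mark matches on either strand to the GC box (GGGCGG), the CCAAT box (CCAAT), the E-box (CACGTG) or the TATA motif (TATAAA). The windows lie at chr6:24494719-24495018 on the plus strand (ALDH5A1), chr10:95656662-95656961 on the minus strand (ALDH18A1), chr17:19648501-19648800 on the plus strand (the second of the listed ALDH3A2 starts) and chr9:72953004-72953303 on the minus strand (ALDH1A1).
ALDH5A1: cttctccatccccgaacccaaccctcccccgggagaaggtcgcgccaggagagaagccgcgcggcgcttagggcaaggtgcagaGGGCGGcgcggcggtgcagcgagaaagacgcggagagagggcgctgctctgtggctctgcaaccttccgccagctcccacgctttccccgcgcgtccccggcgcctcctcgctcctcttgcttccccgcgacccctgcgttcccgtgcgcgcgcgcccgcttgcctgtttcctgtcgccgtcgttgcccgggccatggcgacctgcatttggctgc
ALDH18A1: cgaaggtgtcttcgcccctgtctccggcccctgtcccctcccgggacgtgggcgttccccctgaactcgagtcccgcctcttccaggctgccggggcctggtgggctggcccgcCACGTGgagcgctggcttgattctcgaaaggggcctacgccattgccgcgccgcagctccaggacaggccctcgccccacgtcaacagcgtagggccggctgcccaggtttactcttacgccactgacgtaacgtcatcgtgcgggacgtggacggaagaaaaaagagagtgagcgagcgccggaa
ALDH3A2: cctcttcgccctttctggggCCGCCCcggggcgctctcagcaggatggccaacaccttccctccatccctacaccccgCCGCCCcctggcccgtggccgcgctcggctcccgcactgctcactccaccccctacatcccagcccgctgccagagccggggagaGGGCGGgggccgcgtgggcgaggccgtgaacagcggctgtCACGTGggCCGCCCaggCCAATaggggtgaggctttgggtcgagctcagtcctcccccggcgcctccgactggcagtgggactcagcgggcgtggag
ALDH1A1: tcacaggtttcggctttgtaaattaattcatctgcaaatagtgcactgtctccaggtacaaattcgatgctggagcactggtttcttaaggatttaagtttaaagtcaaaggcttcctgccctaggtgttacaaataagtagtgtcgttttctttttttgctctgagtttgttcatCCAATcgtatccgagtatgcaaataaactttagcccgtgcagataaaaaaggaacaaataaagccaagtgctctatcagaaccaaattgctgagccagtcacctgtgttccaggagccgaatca

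A RefSeq promoter was matched for 8 of the 10 members. Among all 35116 promoter windows of 300 bases, 45.0% held a GC box, 34.6% a CCAAT box, 7.26% an E-box and 11.5% a TATA motif, and no printed window held a TATA motif. The ALDH18A1 window held 1 E-box and no GC box, the ALDH5A1 window 1 GC box, and the printed ALDH3A2 window 4 GC boxes, 1 CCAAT box and 1 E-box. The window of the other listed ALDH3A2 start (chr17:19647886-19648185, plus strand), not printed, held 0 matches to any of these motifs, with 12 CpG and 55.0% G and C. One of the windows of ALDH3B1 also held 1 E-box. The ALDH1A1 window was the poorest in G and C of the windows matched to members, at 40.3% against a median of 58.7% over all windows, with 7 CpG dinucleotides (the GC box and the E-box each contain one). The ALDH5A1 window held 38 CpG, more than or as many as 91.3% of all windows, and ALDH18A1 31. ALDH7A1, which like ALDH1A1 had hardly any signal, had 17 CpG, 3 GC boxes and 1 CCAAT box in its window. A match describes the letters only.

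The FPKM of all named genes summed to 613768 in the control and to 520552 and 517923 in the romidepsin libraries. From the steps between low values, the depth was equivalent to about 19900000 fragments in the control and to 22300000 and 22400000 in the romidepsin libraries. Myeloid markers were present: 8 of 8 reached 1 FPKM in a library, with LYZ at 4258 FPKM in the control library, against 2630 and 2596 FPKM with romidepsin. The summed level of these 8, most of it LYZ, went from 5924 FPKM to 3534 and 3486 FPKM. LYZ and the other lower markers made up 6 of the 8. CD68 was higher, at 48.8 FPKM in the control and at 56.9 and 56.1 FPKM with romidepsin. ANPEP, under 1 FPKM in the control at 0.654 FPKM, was at 5.40 and 5.24 FPKM. Of 12 markers of other cell types, 6, among them MS4A1, HBB, EPCAM, KRT19 and COL1A2, were listed at 0 in every library. The 12 summed to 8.78 FPKM in the control and to 19.8 and 19.6 FPKM after romidepsin. Most of that sum was PECAM1, which myeloid cells also express, and COL1A1 went from 0.0275 to 2.30 and 2.54 FPKM. The part of these markers in the ALDH values was not tested, and in bulk RNA fewer cells of a type and less RNA per cell cannot be told apart.

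Of the 10 members, 8 reached 1 FPKM in a library, and each of the 8 lay on the same side of the control in both romidepsin libraries. ALDH16A1, ALDH3B1, ALDH5A1, ALDH1B1 and ALDH18A1 (5 genes) were lower after romidepsin, and ALDH2, ALDH3A2 and ALDH9A1 (3 genes) were higher, with no overlap between the groups. Over the 11708 genes with at least 1 library at 1 FPKM, 51.4% were lower and 43.8% higher in both romidepsin libraries. ALDH16A1, ALDH3B1 and ALDH5A1 were at least 2-fold lower in both on the log2(FPKM + 1) scale, which holds for 3.08% of all tested genes. With every library scaled to the same summed FPKM, 0 of the members were 2-fold lower, because that scaling moved the median of all genes from -0.05 to 0.16, a shift of 0.21. No member was 2-fold higher in both, against 7.43% of all tested genes. The directions of the 8 members were the same under this scaling. As the members were chosen on this contrast, nothing is read from these shares.

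**Figure D1:**
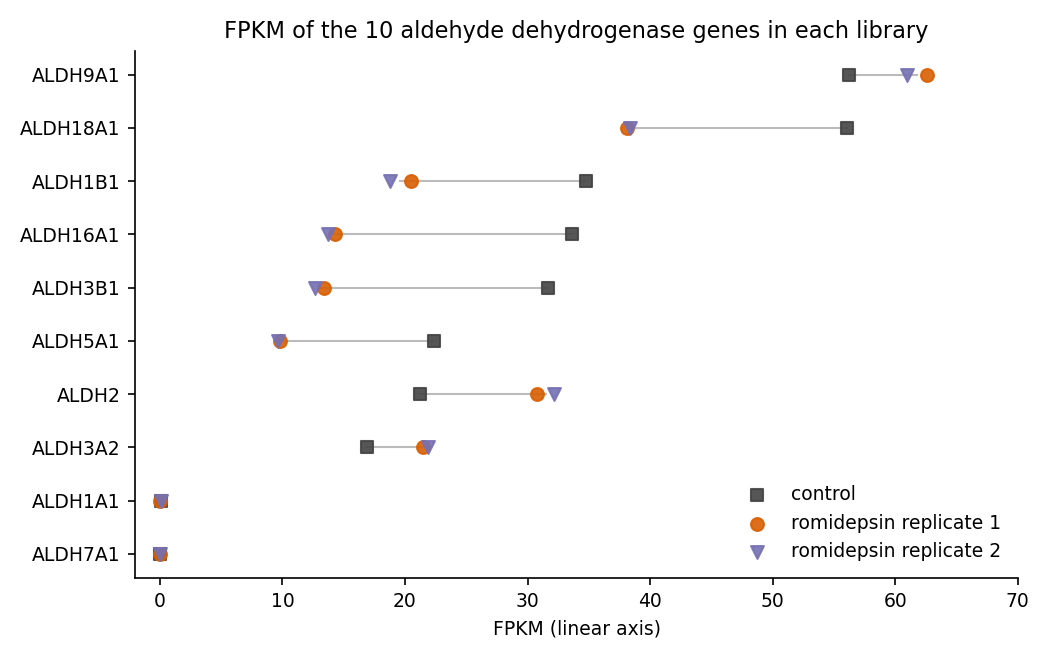
FPKM (linear axis) of each member in the control (squares) and in romidepsin replicates 1 (circles) and 2 (triangles), with a grey line from the control to the romidepsin mean. The romidepsin replicates lie close together, ALDH16A1 goes from 33.6 FPKM to 14.3 and 13.7 FPKM, and ALDH1A1 and ALDH7A1 lie at the left edge.

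Of the lower members, 3 are mitochondrial enzymes. ALDH5A1, succinic semialdehyde dehydrogenase, the last enzyme of GABA breakdown, was at 22.4 FPKM in the control library, against 9.80 and 9.68 FPKM with romidepsin. The control thus lay 2.30-fold above the romidepsin mean, and the romidepsin libraries were 0.02 apart on the log2(FPKM + 1) scale against a difference of -1.12. ALDH18A1, which makes pyrroline-5-carboxylate from glutamate for proline and ornithine synthesis, was at 56.1 FPKM in the control and at 38.1 and 38.4 FPKM in the romidepsin libraries. It was 1.47-fold higher in the control (log2 difference -0.54), the smallest difference among the 5 lower members. ALDH1B1, a mitochondrial enzyme that oxidises acetaldehyde and has a coding region without introns, was at 34.8 FPKM in the control library, against 20.5 and 18.8 FPKM with romidepsin. Its romidepsin libraries were the farthest apart of the 8 members, by 0.12 on the log2 scale, against a difference of -0.80.

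ALDH16A1 and ALDH3B1 had the largest differences of the members. ALDH16A1, described as a member without the catalytic cysteine of the other enzymes, was at 33.6 FPKM in the control library, against 14.3 and 13.7 FPKM with romidepsin, 2.40-fold lower. ALDH3B1, a membrane-attached enzyme that oxidises fatty aldehydes and products of lipid peroxidation, was at 31.7 FPKM in the control library, against 13.4 and 12.7 FPKM with romidepsin, 2.43-fold lower. Their log2 differences of -1.21 and -1.22 lay below those of all but 1.69% and 1.65% of the tested genes, and that of ALDH5A1 below all but 2.31%. Scaled to the same sum the differences were -0.98 for ALDH16A1, -0.99 for ALDH3B1 and -0.89 for ALDH5A1. Relative to the median of all genes, they were -1.16, -1.17 and -1.07 as deposited.

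Of the higher members, ALDH2 stood out in size. ALDH2, the main mitochondrial enzyme of acetaldehyde oxidation, was at 21.2 FPKM in the control library, against 30.8 and 32.2 FPKM with romidepsin, a 1.49-fold difference (log2 difference 0.55). ALDH3A2, the fatty aldehyde dehydrogenase of the endoplasmic reticulum, was at 16.9 FPKM in the control library, against 21.5 and 21.9 FPKM with romidepsin, 1.28-fold higher. ALDH9A1, which oxidises trimethylaminobutyraldehyde in carnitine synthesis, was at 56.2 FPKM in the control library, against 62.6 and 61.0 FPKM with romidepsin, 1.10-fold higher. None of these 3 reached 2-fold, and the ALDH9A1 difference of 0.13 lay inside the quartiles of all tested genes (-0.40 to 0.36), as did the 0.34 of ALDH3A2. Between the romidepsin libraries, ALDH9A1 differed by 0.04 and ALDH2 by 0.06 on the same scale. Scaled to the same sum, ALDH2 was 0.78 higher, ALDH3A2 0.57 and ALDH9A1 0.37.

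**Figure D2:**
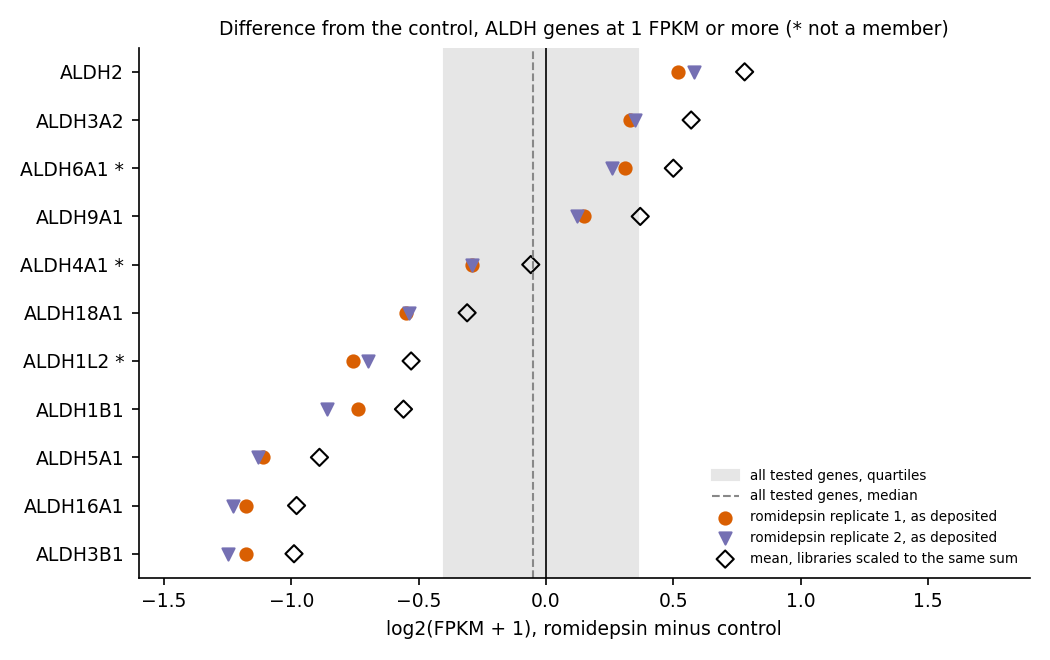
Difference from the control in log2(FPKM + 1) for the 11 ALDH genes at 1 FPKM or more in a library, for romidepsin replicates 1 (circles) and 2 (triangles) as deposited and for their mean after scaling to the same sum (open diamonds); an asterisk marks genes that are not members. The band shows the quartiles (-0.40 to 0.36) and the dashed line the median (-0.05) of all tested genes, and the points run from -1.25 for ALDH3B1 to 0.58 for ALDH2 as deposited.

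ALDH1A1 and ALDH7A1 did not reach 1 FPKM in any library. ALDH1A1, the cytosolic enzyme that makes retinoic acid from retinaldehyde, was at 0.132 FPKM in the control library, against 0.0378 and 0.0763 FPKM with romidepsin. These values correspond to between 2.15 and 5.51 fragments in the control, depending on the transcript, and to at most 1.77 and 3.60 fragments in the romidepsin libraries, so no difference was detectable at this depth. ALDH7A1, which oxidises aminoadipic semialdehyde in lysine breakdown, was listed at 0 FPKM in the control and in romidepsin replicate 1 and at 0.00919 FPKM in replicate 2, at most about 1.02 fragments. A listed 0 in such a table can also be a failed estimate, so it is not read as absence. Of the stretches of 50 bases in the ALDH7A1 transcripts, 2.69% also occur in transcripts of other genes, with its pseudogene ALDH7A1P1 sharing the most, and of those in the ALDH1A1 transcripts 0%.

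Fragment counts behind the 8 other members, taken at the median transcript length, ran from about 1006 (ALDH5A1) to about 3731 (ALDH18A1) in the control. Counting alone then gives a relative error of 3.15% for ALDH5A1 in the control and of 4.49% and 4.51% after romidepsin, and of 1.82% for ALDH9A1 in the control. These errors cover counting only, and the lengths come from an annotation on a build other than the authors'. The counts also depend on the transcript assumed. In the control they ran from 198 (shortest) to 1321 (longest) for ALDH3A2 and from 661 to 4022 for ALDH2. With a shorter transcript the counting errors would be larger. ALDH16A1 overlaps PIH1D1 on the opposite strand, and whether counting used strand is not given, so their reads may not be told apart. PIH1D1 was at 79.7 FPKM in the control library, against 73.1 and 74.7 FPKM with romidepsin. ALDH5A1 overlaps GPLD1, which was at 0.244 FPKM in the control library, against 0.135 and 0.0979 FPKM with romidepsin. Of the 50-base stretches, ALDH16A1 shares 7.27% and ALDH2 9.45% with transcripts of other genes, the gene sharing the most being in each case an overlapping gene model on the same strand, ALDH5A1 shares 4.60%, and ALDH3B1 shares 1.30%, with ALDH3B2 in first place.

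The order of the levels changed between the groups. In the control, ALDH9A1 (56.2 FPKM) and ALDH18A1 (56.1 FPKM) led and differed by less than their counting errors of 1.82% and 1.64%. ALDH1B1 (34.8 FPKM), ALDH16A1 (33.6 FPKM) and ALDH3B1 (31.7 FPKM) followed, then ALDH5A1 (22.4 FPKM), ALDH2 (21.2 FPKM) and ALDH3A2 (16.9 FPKM), and with 1 control library the spread of that order is not known. After romidepsin the order by mean was ALDH9A1 (61.8 ± 1.13 FPKM, SD, n = 2), ALDH18A1 (38.2 ± 0.228), ALDH2 (31.5 ± 1.02), ALDH3A2 (21.7 ± 0.324), ALDH1B1 (19.6 ± 1.24), ALDH16A1 (14.0 ± 0.393), ALDH3B1 (13.1 ± 0.488) and ALDH5A1 (9.74 ± 0.0840). ALDH2 went from the seventh to the third place and ALDH3A2 from the eighth to the fourth. Neighbours in the romidepsin order did not overlap between the pair of libraries, but ALDH16A1 and ALDH3B1 were only 0.930 FPKM apart, close to the sum of their SDs. Scaling a whole library cannot change the order within it.

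The 19 human ALDH genes, members and others, summed to 308 FPKM in the control library, against 240 and 238 FPKM with romidepsin. Per 1000 FPKM of all named genes, this was 0.502 in the control and 0.462 and 0.460 after romidepsin. The sum was thus lower by either measure, and the relative difference was smaller per 1000 FPKM. The 5 lower members made up 58.0% of the ALDH sum in the control and 40.0% and 39.2% after romidepsin. The 3 higher members went from 30.6% to 47.8% and 48.4% of it. ALDH9A1 alone went from 18.2% to 26.0% and 25.6%, and ALDH2 from 6.87% to 12.8% and 13.5%. These shares do not depend on the scaling of a library.

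**Figure D3:**
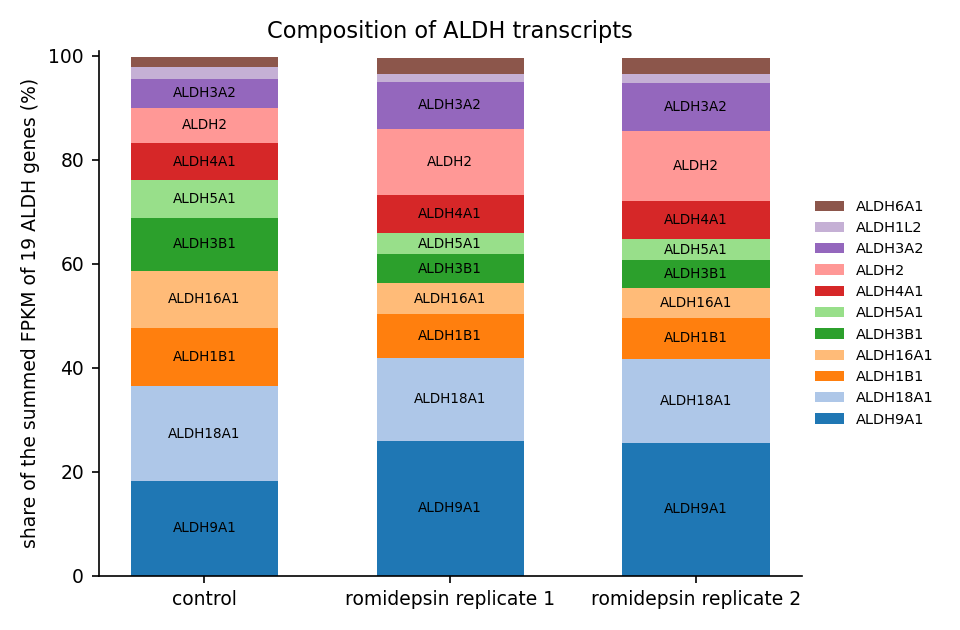
Share (%) of the summed FPKM of 19 ALDH genes held by each of the 11 genes at 1 FPKM or more, in the control and in each romidepsin replicate (1 bar per library, with no error bars). ALDH2 widens from 6.87% to 12.8% and 13.5%, and ALDH16A1 narrows from 10.9% to 5.93% and 5.76%.

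Of the 9 ALDH genes that are not members, 3 reached 1 FPKM and could be tested, by limma on log2(FPKM + 1) with Benjamini-Hochberg adjustment over the 11708 genes. The fit assumes that the lone control varies like the romidepsin pair, and it called 76.5% of all tested genes (34.7% higher and 41.8% lower). ALDH1L2, the mitochondrial 10-formyltetrahydrofolate dehydrogenase, fell from 7.08 to 3.75 and 3.97 FPKM (log2 difference -0.73, SE 0.08, limma adjusted p = 8.95e-05). ALDH4A1, which oxidises pyrroline-5-carboxylate to glutamate in proline breakdown, fell from 21.7 to 17.5 and 17.6 FPKM (log2 difference -0.29, SE 0.05, limma adjusted p = 9.41e-04), a call lost when scaled to the same sum (-0.06, adjusted p = 0.266). ALDH6A1, an enzyme of valine and pyrimidine breakdown, rose from 5.85 to 7.50 and 7.23 FPKM (log2 difference 0.29, SE 0.07, limma adjusted p = 0.00565). The other 6 stayed at or under 0.320 FPKM. Among them ALDH1A2 and ALDH3B2 were listed at 0 in every library, and the retinaldehyde enzyme ALDH1A3 was at 0.263 FPKM in the control and at 0.215 FPKM in each romidepsin library.

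Around the members, 5 lists of partner genes were followed together with these 3 ALDH genes. Over all of them, 23 genes were called higher and 24 lower by limma as deposited, against 36 and 14 with libraries scaled to the same sum. Over all genes, 4057 were called higher and 4896 lower as deposited, against 5738 and 3061 when scaled. With no filter on low values, 12 were called each way. For RXRA and GLUD2, named below, no value was taken from that or any other alternative. Among the other genes named, calls were lost with no filter for ADH5, AKR1B1, AKR1C2, ALDH1L2, ALDH6A1, DHRS9, ESD, GLUD1, GNPAT, RARG, RDH10, RXRB, SGPL1, SPHK1 and TMLHE. Their limma adjusted p ran from 0.0628 for SPHK1 to 0.491 for TMLHE. Counts below are as deposited, and the SE of the log2 differences of tested genes named from these lists ran from 0.03 (ESD and FADS2) to 0.12 (RARG, DHRS3 and TMLHE).

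Proline, glutamate and GABA enzymes are the partners of ALDH5A1 and ALDH18A1. Of 14 tested, 4 rose and 7 fell (7 and 5 when scaled to the same sum), with a median log2 difference of -0.11 against -0.05 for all genes. PYCR1, which reduces the product of ALDH18A1 to proline, fell from 25.0 to 19.4 and 19.7 FPKM (limma adjusted p = 3.79e-04). The PYCR1 call was lost when scaled to the same sum (adjusted p = 0.0740). PYCRL, a reductase of the same kind, fell from 20.2 to 7.28 and 6.98 FPKM. OAT, which links pyrroline-5-carboxylate to ornithine, was at 33.2 FPKM in the control library, against 32.7 and 31.6 FPKM with romidepsin (limma adjusted p = 0.392), and was called higher, by 0.19, when scaled to the same sum. PRODH, the enzyme that opens proline breakdown, was at most at 0.0655 FPKM. As deposited, PYCR1 and PYCRL were thus called lower, as were 41.8% of all tested genes. ALDH18A1, chosen on this contrast, lay on the same side, and nothing is read from that.

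On the GABA side, ABAT, the transaminase that forms the substrate of ALDH5A1, was at 1.67 FPKM in the control library, against 1.52 and 1.38 FPKM with romidepsin (limma adjusted p = 0.337; called lower with quantile normalization, adjusted p = 0.0244). GAD1, which makes GABA, stayed under 1 FPKM at 0.265, 0.541 and 0.877 FPKM. The largest falls of the list were those of ASS1, the argininosuccinate synthase, from 87.8 to 33.0 and 31.7 FPKM, and of PYCRL. GLUD1, glutamate dehydrogenase, fell from 86.7 to 42.3 and 46.0 FPKM. It can share reads with its near-identical copy GLUD2, so both values are uncertain. The rises were led by ARG2, a mitochondrial arginase, from 7.05 to 12.5 and 13.0 FPKM, and GLUL, glutamine synthetase, had a log2 difference of 0.33.

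Some of the fatty aldehyde and sphingolipid enzymes supply or share the substrates of ALDH3A2 and ALDH3B1, and others of the list act elsewhere in lipid metabolism. Of 13 tested, 4 rose and 5 fell (8 and 4 when scaled), with a median of -0.08. SGPL1, the lyase that releases a fatty aldehyde from sphingosine 1-phosphate, rose from 6.32 to 8.28 and 7.84 FPKM (limma adjusted p = 0.00422), and SPHK1, the kinase that makes that lipid, rose by 0.76 on the log2 scale. FAR2, a fatty acyl-CoA reductase, rose from 16.1 to 31.7 and 30.8 FPKM. The fatty acid desaturase genes FADS1 and FADS2 fell as well. FADS1 went from 73.7 FPKM to 43.9 and 42.6 FPKM, FADS2 from 168 FPKM to 104 and 105 FPKM, and GNPAT, of ether lipid synthesis, fell by 0.45.

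Lysine breakdown and carnitine synthesis concern ALDH7A1 and ALDH9A1. Of 7 tested genes, 2 rose and 2 fell (4 and 1 when scaled), with a median of -0.03. AASS, the first enzyme of the lysine route that feeds ALDH7A1, was listed at 0 in every library, as were AADAT and BBOX1, the last enzyme of carnitine synthesis. TMLHE, the first enzyme of carnitine synthesis, went from 6.98 to 4.65 and 5.88 FPKM, a fall by limma (adjusted p = 0.0247) that was lost after quantile normalization (adjusted p = 0.0539), when scaled to the same sum (0.313), with no filter (0.491) or without a mean-variance trend (0.0774). DHTKD1, which acts downstream of ALDH7A1, rose from 5.20 to 12.3 and 12.9 FPKM, and PDXK, pyridoxal kinase, by 0.40, while GCDH, glutaryl-CoA dehydrogenase, fell from 22.4 to 12.9 and 13.1 FPKM.

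Retinoid genes surround ALDH1A1. Of 13 tested, 7 rose and 5 fell (8 and 2 when scaled), with a median of 0.40. RARG, a retinoic acid receptor gene, rose from 0.257 to 2.93 and 2.50 FPKM and DHRS3, which reduces retinaldehyde, from 0.167 to 1.98 and 1.99 FPKM; both reached 1 FPKM with romidepsin alone, which fixes their direction. DHRS9, a retinol dehydrogenase, rose from 2.03 to 5.57 and 6.13 FPKM. RXRB, a partner receptor, fell from 25.1 to 15.7 and 16.9 FPKM, and RDH10, which makes retinaldehyde, from 8.57 to 6.49 and 5.89 FPKM, a call lost when scaled to the same sum (adjusted p = 0.0502). RXRA, another partner receptor, read in a joint row with MIR4669, rose from 4.58 to 8.64 and 8.40 FPKM (log2 difference 0.77, limma adjusted p = 2.95e-05). RDH14, read only in a joint row with NT5C1B, fell by 0.40. CYP26A1, which breaks down retinoic acid, was listed at 0 in every library.

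Alcohol dehydrogenases and aldehyde reductases make or remove aldehydes by other routes. Of 10 tested rows, 5 rose and 3 fell (8 and 1 when scaled), with a median of 0.46, and 7 rows, among them ADH1A, ADH1B, ADH1C, ADH4, ADH6 and ADH7, were listed at 0 in every library. AKR1C3, an aldo-keto reductase, rose from 1.87 to 16.5 and 16.2 FPKM (limma adjusted p = 1.44e-07) and AKR1C2 from 2.04 to 5.53 and 4.88 FPKM. AKR1C genes are near-identical in sequence, so the split between them is uncertain. AKR1B1, aldose reductase, rose from 84.1 to 124 and 117 FPKM. AKR7A2, which reduces succinic semialdehyde, was read in 1 row together with AKR7A3, and that row fell from 84.9 to 66.8 and 66.9 FPKM. ADH5, which oxidises the glutathione adduct of formaldehyde, fell from 44.7 to 39.2 and 38.2 FPKM (limma adjusted p = 0.00315), and ESD, the next enzyme of that route, fell by 0.10. Neither direction holds under scaling to the same sum, where ADH5 was 0.03 higher and not called (adjusted p = 0.491) and ESD was called higher, by 0.13 (and by 0.16 with quantile normalization).

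**Figure D4:**
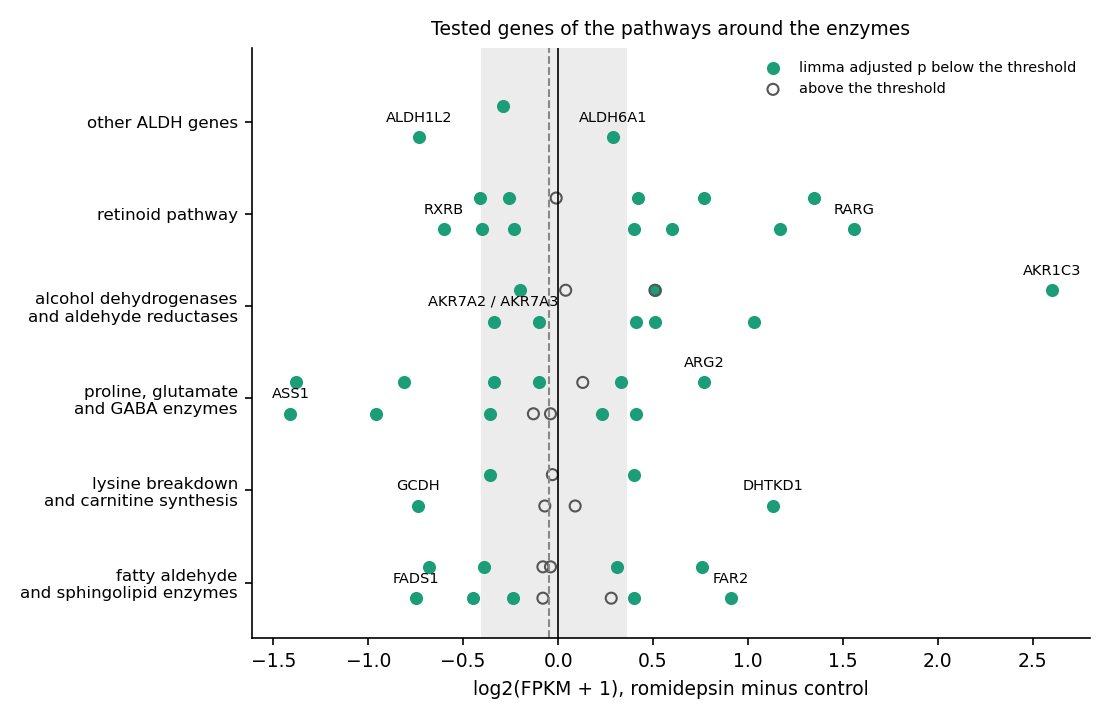
Difference in log2(FPKM + 1) between the romidepsin mean and the control for each tested row of the 6 lists (rows of points, shifted up and down only to separate them), filled where the limma adjusted p was below 0.05. The grey band marks the quartiles of all tested genes (-0.40 to 0.36), the dashed line their median (-0.05), and the lowest and highest gene of each list is named, from ASS1 at -1.41 to AKR1C3 at 2.60.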

How the data were processed

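RNA sequencing was read from 3 libraries, each with its own table of 28837 rows. The authors deposited FPKM values, per the file headers; per the submitters' processing notes, the tools were TopHat, Cufflinks and Cuffdiff and the build was hg19. No version, setting or annotation is given in the sources used here. The control group follows the treatment label, and the romidepsin group follows the sample titles. Unnamed rows and rows named by a number (21.2% to 22.4% of the summed FPKM) were left out, and rows of a symbol were summed. Each member came from 1 row naming 1 gene. Genes with a library at 1 FPKM or more (11708) were compared on log2(FPKM + 1), which understates changes of low values, with limma 3.58.1 in R 4.3.3 (eBayes with a trend, adjusted p threshold 0.05, Benjamini-Hochberg, 1 residual degree of freedom, prior 6.06). The fit was checked on simulated data in which the control varied like the romidepsin pair. That check cannot show whether the real control does so. Depth was estimated from FPKM steps of single-transcript genes with GENCODE 29 lengths. The romidepsin files shared no value above 0 (0 of 17139 rows). Python 3.11.15, numpy 2.4.6, pandas 2.3.3 and matplotlib 3.10.9 were also used. The members, lists and alternatives were chosen with earlier results of these data known. Alternatives were a pseudocount of 0.1, no filter, a mean of at least 5 FPKM, libraries scaled to the same sum, quantile normalization, symbols of 1 row only, no trend, and leaving out either romidepsin library. Named were all ALDH genes, up to 3 called rises and 3 called falls per list by size, and 13 substrate partners; a few of these genes are not reported here.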

Additional observations from a re-analysis of the deposited data

How the results depend on the processing

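The 8 members at 1 FPKM or more kept their direction in all 64 values under the alternatives run, with ranges from -1.27 to -0.99 for ALDH3B1, -1.26 to -0.98 for ALDH16A1, -1.19 to -0.89 for ALDH5A1, -0.86 to -0.56 for ALDH1B1, -0.55 to -0.31 for ALDH18A1, 0.12 to 0.37 for ALDH9A1, 0.33 to 0.57 for ALDH3A2 and 0.52 to 0.78 for ALDH2. Only scaling to the same sum and quantile normalization could have turned a direction round. The filters left the members' values as they were, and neither the pseudocount nor leaving out a library could change a sign. With libraries scaled to the same sum, 0 members were 2-fold lower, 3061 genes were called lower, 172 were 2-fold lower, and list genes were called higher 36 and lower 14 times. In the same setting ADH5 (0.03), ESD (0.13) and OAT (0.19) changed sign, ABAT went from -0.13 to 0.02 without a call in either, and with quantile normalization ESD (0.16) and, not called, OAT (0.09) changed sign. With no filter, 2047 genes were called higher and 2088 lower, and 12 list genes each way. A pseudocount of 0.1 gave 1308 genes 2-fold higher and 543 lower, and a mean of at least 5 FPKM left 463 higher. Beyond the scaling shift itself, the cause was not tested. Without romidepsin replicate 1 or 2 no limma test was possible. The members' counts were 5 lower, 3 higher and 3 at least 2-fold lower there. These counts could not have dropped, because the rule already asked for both libraries. In those settings 951 to 957 genes were 2-fold higher and 424 to 429 lower. Among single genes most lost calls came with no filter. FPKM steps, not counts, limit what can be said of genes under 1 FPKM. No paired analysis was possible because the control carries no replicate number and has 1 library.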

Other observations

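Within a library, the ratio of 2 genes does not depend on library scaling. For 3 pairs chosen after their values were seen, the order turned round or opened up. ALDH2 was at 0.608 times the FPKM of ALDH1B1, the other mitochondrial acetaldehyde enzyme, in the control and at 1.50 and 1.72 times after romidepsin. ALDH3A2 was at 0.534 times the FPKM of ALDH3B1, which also oxidises fatty aldehydes, in the control and at 1.60 and 1.73 times after romidepsin. ALDH9A1 and ALDH18A1 were level in the control (56.2 and 56.1 FPKM), and their ratio was 1.64 and 1.59 after romidepsin. These ratios rest on the same values as the report and are given as a description.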
